A study of Oryza sativa Japonica Group with 6 samples.

Results

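Pyruvate decarboxylase cDNAs are followed here on rice arrays that set coleoptiles of the *rad* mutant against wild type. The 4 probes were chosen by the cDNA accession printed for each spot: AK100678, described in the files as rice *pdc1* and called *PDC1* here; AK101594, described as rice *Pdc2* and called *PDC2*; AK100501, described as the rice RRJ2 pyruvate decarboxylase premature mRNA with a partial coding sequence and called RRJ2; and AK069905, whose description is a best match to maize *pdc2*. They are 4 of 21495 non-control probes, and the rule uses the accession alone, not a measured value. Another probe with such a description, AK100433, matched to maize *pdc3*, is no member and is described only where it serves as a comparison. None of the cDNA accessions matched the RefSeq gene table used here, so no chromosomal position is given. Probe sequences were not used here, and whether some of these cDNAs come from a single gene, or cross-hybridise, was not tested.

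Both genotypes were of cultivar Kinmaze, and the mutant is named for reduced alcohol dehydrogenase activity, with no lesion stated in the labels. All seeds had been germinated under water, 15 to a bottle holding 1 L, so no aerated control is part of the comparison. Coleoptiles, the sheaths around the first leaf, were cut from 8 µm sections by laser microdissection, and their RNA was linearly amplified and labelled. Each array carried mutant cRNA in one dye and wild-type cRNA in the other, and each of 3 replicates had an array with the mutant in Cy5 and a colour-swapped array with the mutant in Cy3. The labels give neither the time under water nor whether replicates were separate cultures. The limma p-values thus rest on the spread among these 3 samples, which may be technical, moderated toward a variance estimated over all probes.

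Pyruvate decarboxylase is a thiamine diphosphate-dependent cytosolic enzyme that splits pyruvate into carbon dioxide and acetaldehyde. Alcohol dehydrogenase then reduces acetaldehyde to ethanol, which returns NAD+ to glycolysis when oxygen is short. Rice is known for coleoptiles that elongate under water on the energy of this ethanol fermentation, and plant pyruvate decarboxylases are encoded by small gene families. With microdissected tissue on arrays, more cells of a type and more RNA per cell cannot be told apart.

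Across all arrays, between 90.4% and 95.7% of the probes in a channel were well above background, and spots stood at a median of 4 to 5.16 times their surroundings in Cy3 and 8.4 to 10.3 times in Cy5. All 4 pyruvate decarboxylase probes were well above background in both dyes on all 6 arrays and entered the test, which took 19947 probes. The number of arrays limits the precision. Some marker lists also moved with genotype. Expansins were taken as markers of the coleoptile itself, and the leaf and root lists as markers of other tissues. By limma, 8 of 31 expansin probes and 8 of 32 leaf probes were lower in the mutant and 1 of each list was higher, where 10.1% of all probes were lower and 14.6% higher. The shares of the summed signal in these lists overlapped, 0.122% to 0.141% in the mutant against 0.127% to 0.143% in wild type for expansins, and 0.0906% to 0.0983% against 0.0939% to 0.112% for leaf. The 9 root probes held 0.107% to 0.308% of the summed signal in mutant channels and 0.302% to 0.526% in wild-type channels, and the 6 tested had a median log2 ratio of -0.65, -0.66 and 0.01 in replicates 1, 2 and 3. Of these 6 probes, 2 were lower in the mutant and none was higher by limma, and 8 of the 9 were well above background. One of them, AK063684, was saturated in Cy5 on 3 arrays. Without it, a choice made after seeing the data, the shares were 0.0695% to 0.113% in the mutant and 0.123% to 0.162% in wild type, and the medians of the 5 other tested probes were -0.27, -0.38 and -0.01. The part of other tissues in the values below was not tested.

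The members covered a wide range of spot brightness, which is a property of each probe and is not compared as a transcript level between probes. In Cy3 the *PDC1* spot ranked between 7 and 35 from the brightest of the 21495 probes, and in Cy5 it was at the ceiling of the scanner, where ranks have no meaning. The *PDC2* spot ranked between 57 and 138. RRJ2 ranked between 68 and 114 in mutant channels and between 140 and 630 in wild-type channels. The maize *pdc2*-like probe lay in the middle and lower range, between 9777 and 13671 in mutant channels and between 14430 and 15783 in wild-type channels. Its intensity was 2.51 to 10.7 times the local background. The probe left out of the set, AK100433, reached 1.22 to 1.65 times the background, was well above it in none of its 12 spots and was not tested. All 4 members therefore gave a measured signal in submerged coleoptiles of both genotypes.

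**Figure D1:**
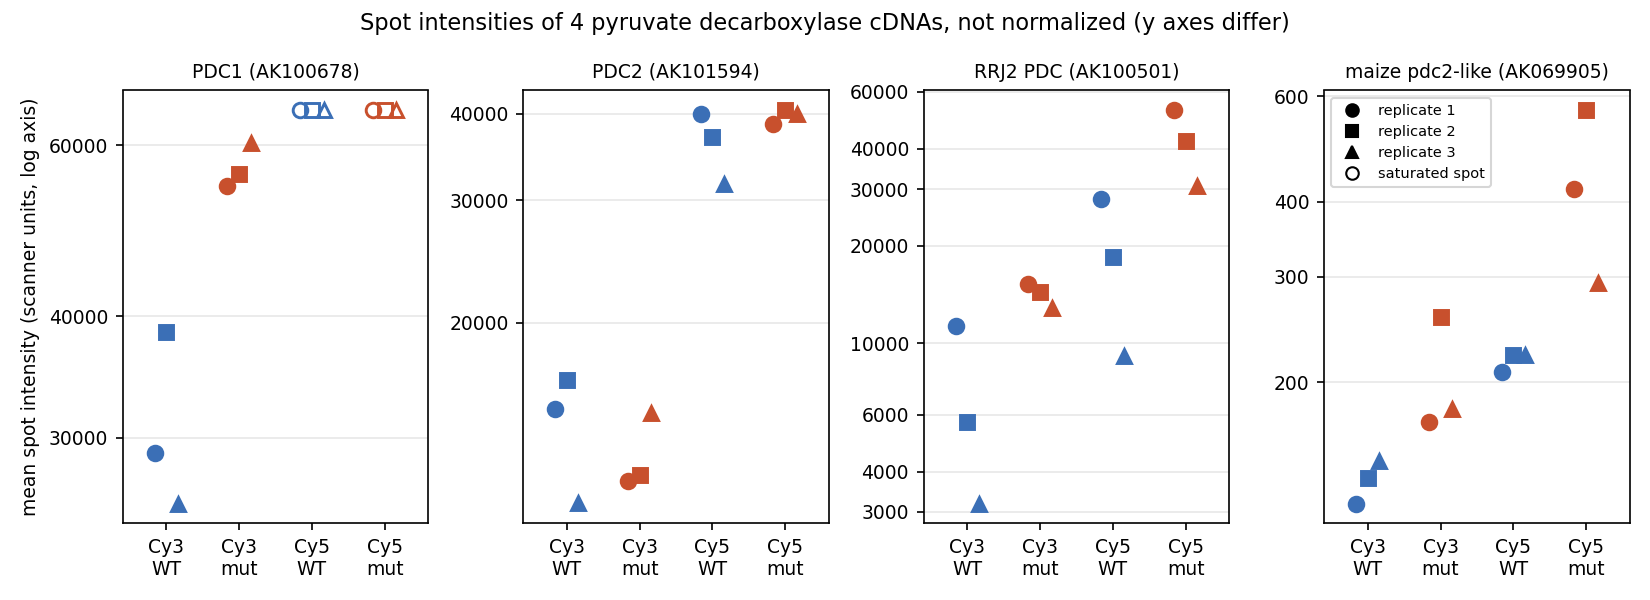
Mean spot intensity in scanner units (log axes that differ between panels) of the 4 pyruvate decarboxylase probes in each dye and genotype; each symbol is 1 replicate, and open symbols are saturated spots. *PDC1* sits at the ceiling in Cy5 in both genotypes, and in Cy3 its mutant values (54512 to 60370) lie above its wild-type values (25666 to 38508).

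*PDC1* (AK100678) could not be read as a ratio, because its Cy5 spot was at the ceiling of the scanner on every array. In Cy5 all pixels of the spot were saturated on all 6 arrays, with mean intensities of 65197 to 65210 in both genotypes. In Cy3 none of its pixels was saturated. The Cy3 intensity in wild type was 28918, 38508 and 25666 in replicates 1, 2 and 3, which was 44.4%, 59.2% and 39.4% of the brightest spot of that channel. In the mutant it was 54512, 56058 and 60370, or 83.7%, 86.1% and 92.7% of the brightest spot. All mutant spots were brighter than all wild-type spots in Cy3, and the mutant was 1.89-, 1.46- and 2.35-fold brighter before normalization. By brightness in Cy3, *PDC1* ranked 13 to 35 in wild type and 7 to 8 in the mutant.

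A difference within Cy3 lies between the 2 arrays of a colour-swap pair, so it also carries any difference between those arrays. After loess and scaling of the average intensities to a common distribution, the Cy3 log2 level of *PDC1* was 15.48 ± 0.36 (SD, n = 3) in wild type and 16.71 ± 0.11 (SD, n = 3) in the mutant. The log2 difference was 1.25, 0.81 and 1.64 in replicates 1, 2 and 3, with a mean of 1.23 ± 0.42 (SD, n = 3), a 2.35-fold rise (limma adjusted p = 0.00779, 95% interval 0.84 to 1.62). Of all probes tested within Cy3, 6.06% were called higher in the mutant and 5.88% lower. That normalization draws on the saturated Cy5 channel as well. The normalized mutant level lies above the scanner's own Cy3 ceiling, so it is not a reading of intensity. With Cy3 alone scaled to its 75th percentile, the difference was 0.85 ± 0.41 (SD, n = 3), or 1.80-fold (limma adjusted p = 0.0209). With quantile normalization of Cy3 alone, an alternative chosen after seeing the data, it was 0.92 ± 0.37 (SD, n = 3), or 1.90-fold (limma adjusted p = 0.0179). The size thus ranged from 1.80- to 2.35-fold with the normalization, and the direction and the call were the same in all of these.

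The ratio of *PDC1* changed with the dye. With the mutant in Cy5, the log2 ratio of mutant over wild type was -0.15, -0.48 and 0.24 in replicates 1, 2 and 3. With the mutant in Cy3 it was 1.56, 1.56 and 1.86 in the same replicates. The dye orientations did not overlap, and their means were -0.13 ± 0.36 (SD, n = 3) and 1.66 ± 0.17 (SD, n = 3). Their mean over pairs is therefore given neither as a size nor as a direction. The dye effect, taken as 0.5 times the difference between the orientations, was -0.90 ± 0.11 (SD, n = 3; limma adjusted p = 5.4e-06), the 10th lowest of 19947 probes. For this dye effect, 15.4% of all probes were called above 0 and 11.6% below, around a median of 0.01.

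Other saturated probes behaved alike in sign. On all 6 arrays 27 probes were saturated in Cy5, and 19 of them, *PDC1* included, were saturated in Cy3 on none. All 19 had a dye effect below 0, from -1.09 to -0.15 with a median of -0.62, and that of *PDC1* was the third lowest. Within Cy3, the differences of these 19 probes between mutant and wild type ran from -0.54 to 1.23. Their median was 0.23, against 0.02 for all probes tested. The value of *PDC1* was the highest among them. By limma, 6 of the 19 were called higher in the mutant and 0 lower, where 6.06% of all probes were called higher and 5.88% lower.

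**Figure D2:**
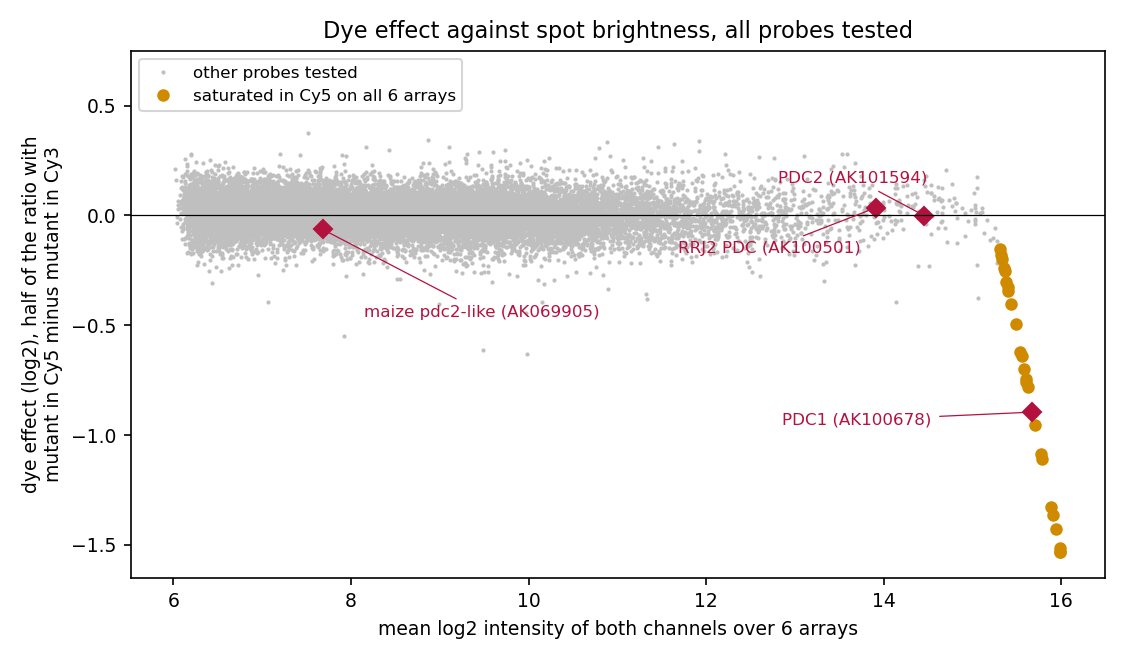
Dye effect (log2; 0.5 times the ratio with the mutant in Cy5 minus the ratio with the mutant in Cy3) against the mean log2 intensity of both channels for all 19947 probes tested. Probes saturated in Cy5 on all 6 arrays (orange) fall away below 0 at the bright end, *PDC1* among them at -0.90, while the other 3 pyruvate decarboxylase probes lie between -0.06 and 0.04.

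*PDC2* (AK101594), the other rice cDNA with a numbered *pdc* name, was not called different between genotypes. Its Cy3 intensity in wild type was 14991, 16504 and 10976 in replicates 1, 2 and 3, and in the mutant 11840, 12077 and 14830. Its Cy5 intensity in the mutant was 38576, 40448 and 39962, and in wild type 39933, 36968 and 31672. The genotypes overlapped in both dyes, and only in replicate 3 was the mutant brighter in both. No *PDC2* spot was saturated: its intensity was 16.9% to 62% of that of the brightest spot.

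The log2 ratio of *PDC2* was -0.01, 0.05 and 0.74 in replicates 1, 2 and 3, a mean of 0.26 ± 0.42 (SD, n = 3; limma adjusted p = 0.328). With median centring in place of loess it was 0.04 (limma adjusted p = 0.86). The 95% interval, -0.20 to 0.72, includes no change and a rise of up to 0.72. Within a pair both arrays gave nearly the same value, 0.02 and -0.03 in replicate 1, 0.04 and 0.06 in replicate 2, and 0.73 and 0.76 in replicate 3. The spread of *PDC2* thus lay between replicates and not between dyes, and its dye effect was -0.00 ± 0.02 (SD, n = 3; limma adjusted p = 0.986). By the scanner software's error estimate for single spots, the deposited values were 1.31e-05 and 1.2e-05 on the arrays of replicate 3 and 0.72 to 0.89 on the other 4 arrays. These deposited p-values belong to 1 array each and say nothing of the spread between samples. Without replicate 3 the log2 ratio was 0.02 (limma adjusted p = 0.791).

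RRJ2 (AK100501) was higher in the mutant in every replicate and had the largest mean difference of the 3 probes that could be read as ratios. Its Cy3 intensity in wild type was 11270, 5680 and 3187 in replicates 1, 2 and 3, and in the mutant 15299, 14437 and 12833. Its Cy5 intensity in the mutant was 52693, 42195 and 30785, and in wild type 27899, 18553 and 9114. The mutant was above wild type in all replicates and in both dyes, and the genotypes did not overlap within either dye. No RRJ2 spot was saturated.

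The log2 ratio of RRJ2 was 0.87, 1.46 and 2.19 in replicates 1, 2 and 3, a mean of 1.51 ± 0.67 (SD, n = 3), or 2.84-fold (limma adjusted p = 0.0239, 95% interval 0.79 to 2.22). This was the 167th highest of 19947 ratios, whose median was -0.01 and whose 5th and 95th percentiles were -0.41 and 0.55. Both dye orientations gave a similar ratio in each replicate, 0.88 and 0.85, 1.63 and 1.28, and 2.12 and 2.27, with the mutant in Cy5 given first. Read within 1 dye, the rise was 1.55 ± 0.78 (SD, n = 3; limma adjusted p = 0.0191) in Cy3 and 1.46 ± 0.57 (SD, n = 3; limma adjusted p = 0.00721) in Cy5. These differences average to the ratio by construction, so they are parts of it and not separate support. Within Cy5, 10.9% of all probes were called higher and 5.39% lower. The scanner software's deposited p was under 0.01 on all 6 arrays, from 2.18e-22 to 8.41e-07.

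The unequal ratios of RRJ2 lay mostly in its wild-type level. Averaged over both dyes, the normalized log2 level in wild type was 13.93, 13.27 and 12.28 in replicates 1, 2 and 3, a range of 1.65. In the mutant it was 14.80, 14.73 and 14.47, a range of 0.33. The SD was 0.83 in wild type and 0.17 in the mutant, and no test of this difference in spread was made with 3 replicates. The call was lost without replicate 1 (1.83, limma adjusted p = 0.0525) or without replicate 2 (1.53, limma adjusted p = 0.106), while all values stayed above 0.

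**Figure D3:**
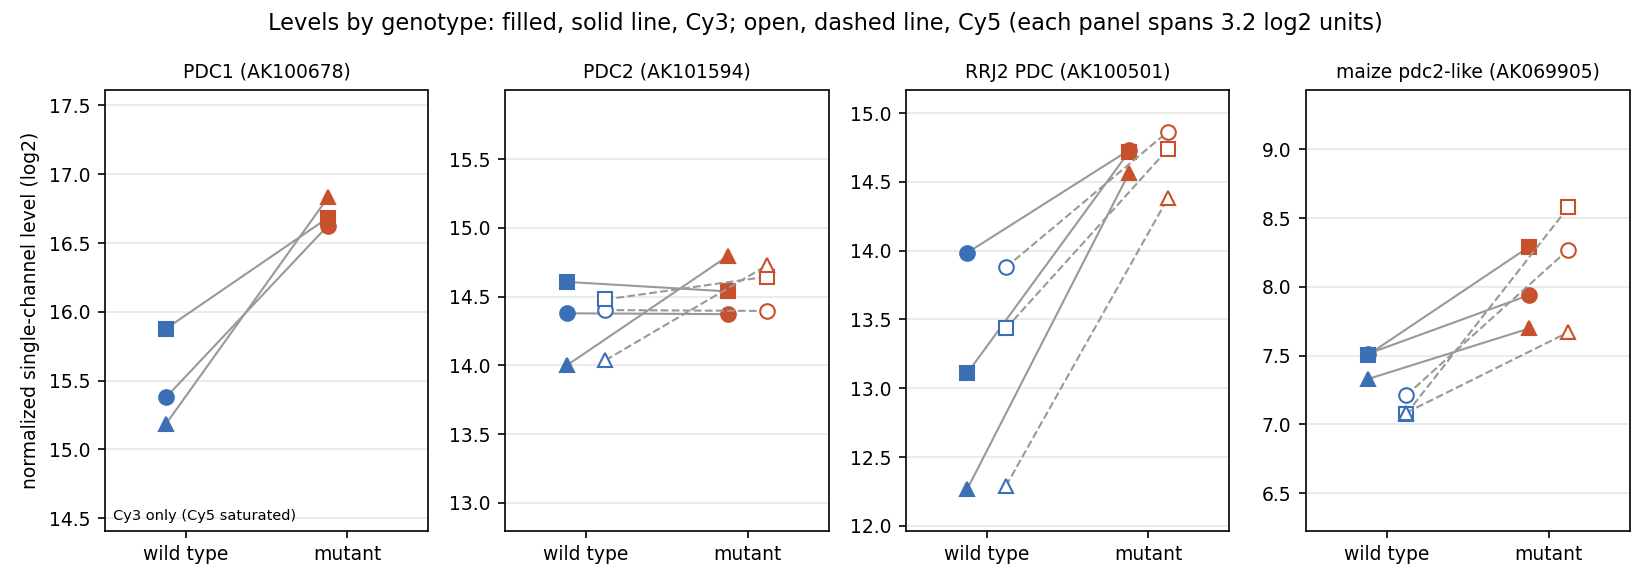
Normalized single-channel log2 level of each pyruvate decarboxylase probe in wild type and mutant; circles, squares and triangles are replicates 1, 2 and 3, joined between genotypes within Cy3 (filled, solid lines) or Cy5 (open, dashed lines), and *PDC1* is shown in Cy3 alone. In Cy3, RRJ2 spans 12.26 to 13.98 in wild type and 14.56 to 14.73 in the mutant, while *PDC2* overlaps between genotypes.

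The maize *pdc2*-like probe (AK069905), the dimmest of the 4, was also higher in the mutant. Its Cy3 intensity in wild type was 125.5, 138.4 and 147.7 in replicates 1, 2 and 3, and in the mutant 171.5, 257 and 180.4. Its Cy5 intensity in the mutant was 419.5, 568.5 and 292.4, and in wild type 208.2, 222.3 and 222.3. Here too the mutant was brighter in all replicates and both dyes, with no overlap within a dye. Replicate 2 had the highest mutant value in each dye.

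Its log2 ratio was 0.74, 1.14 and 0.48 in replicates 1, 2 and 3, a mean of 0.79 ± 0.34 (SD, n = 3), or 1.73-fold (limma adjusted p = 0.0231, 95% interval 0.42 to 1.16). For this dim probe the size depended on the background correction, 1.07 by normexp with no offset and 1.19 from the scanner software's processed signals, both also called. Within Cy3 the difference was 0.53 ± 0.23 (SD, n = 3; limma adjusted p = 0.0325), and within Cy5 it was 1.05 ± 0.46 (SD, n = 3; limma adjusted p = 0.0122). Again these are the parts that average to the ratio. The array ratios lay between 0.34 and 1.22, and the dye effect was -0.06 ± 0.08 (SD, n = 3; limma adjusted p = 0.148). The normalized level varied more in the mutant, 7.68 to 8.44, than in wild type, 7.21 to 7.36, the opposite order to RRJ2. The scanner software's deposited p was under 0.01 on 4 arrays, and in replicate 3 it was 0.163 and 0.0243. The limma call was lost without replicate 1 (0.81, adjusted p = 0.121) or without replicate 2 (0.61, adjusted p = 0.0561).

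**Figure D4:**
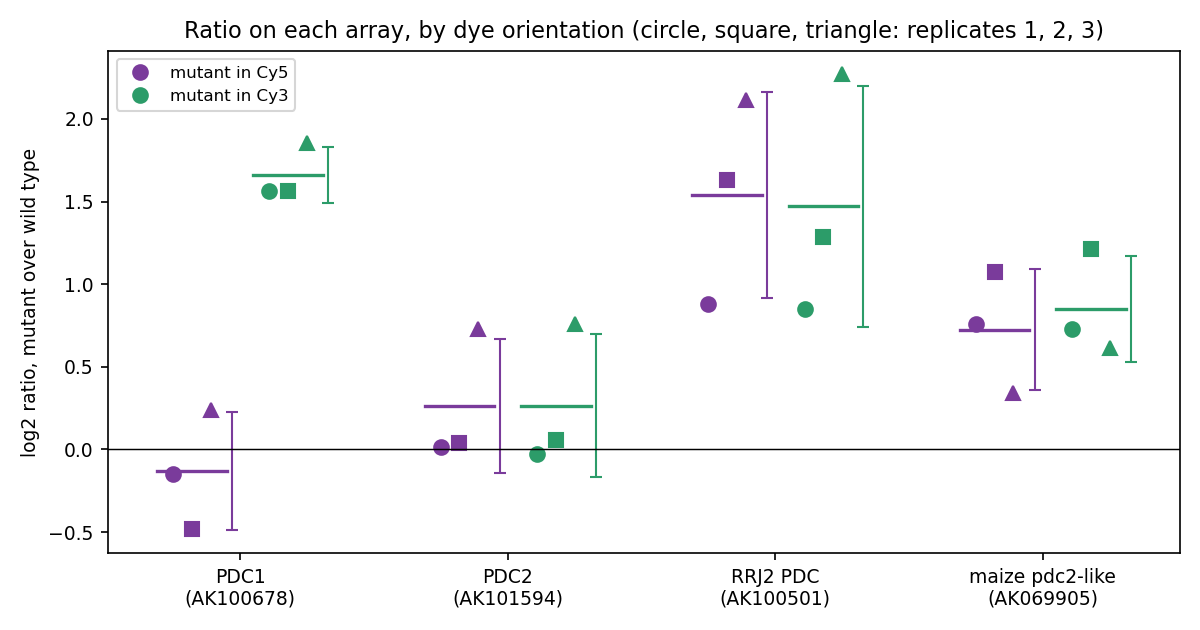
Log2 ratio of mutant over wild type on each of the 6 arrays, by dye orientation, for the 4 pyruvate decarboxylase probes; circles, squares and triangles are replicates 1, 2 and 3, and bars give mean and SD (n = 3). The orientations part only for *PDC1* (-0.13 against 1.66 on average), and replicate 3 is highest for RRJ2 and *PDC2* and lowest for the maize *pdc2*-like probe.

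Of the 3 members readable as ratios, 2 were called higher in the mutant and 0 lower, where limma called 14.6% of all probes higher and 10.1% lower. Both calls use moderated standard errors, 0.27 for RRJ2 and 0.14 for the maize *pdc2*-like probe. These are smaller than their own SDs over 3 replicates alone would give. Within Cy3, 3 of the 4 were called higher, against 6.06% of all probes. Among these 3 was *PDC1*, and of the 19 probes saturated like it in Cy5 alone, itself included, 6 were called higher. The other 2 are the members already called by their ratio. Of these Cy3 calls, that of RRJ2 was lost with the scanner software's processed signals and without replicate 2, and that of the maize *pdc2*-like probe without replicate 1 or 2. The replicates did not rank alike among the members. Replicate 3 held the highest value for *PDC1* in Cy3, *PDC2* and RRJ2 and the lowest for the maize *pdc2*-like probe.

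Differences between members were compared within replicates over 3 pairs of members for the ratio. The 95% intervals of these differences use the spread of the 3 replicates alone, unlike those of single probes. The log2 ratio of *PDC2* was below that of RRJ2 in 3 of 3 replicates, by a mean difference of -1.24 ± 0.32 (SD, n = 3; 95% interval -2.04 to -0.44; exact two-sided sign-flip p = 0.25, 0.375 after adjustment). With 3 replicates 0.25 is the smallest p that this exact test can give. *PDC2* minus the maize *pdc2*-like probe was -0.53 ± 0.71 (SD, n = 3; 95% interval -2.29 to 1.24), and RRJ2 minus that probe was 0.72 ± 0.87 (SD, n = 3; 95% interval -1.45 to 2.88). Neither of these differences exceeded its SD between replicates (exact sign-flip p = 0.5 and 0.25, 0.5 and 0.375 after adjustment). From the scanner software's processed signals they were -0.92 (exact sign-flip p = 0.5) and 0.33 (exact sign-flip p = 1). Within Cy3, *PDC1* minus *PDC2* was 0.99 ± 0.23 (SD, n = 3; exact sign-flip p = 0.25, 0.375 adjusted over 6 pairs), and *PDC1* minus RRJ2 was -0.32 ± 0.71 (SD, n = 3).

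The probes whose 6 array ratios lay nearest to those of a member were also identified, as the root mean square log2 difference over the 6 arrays. For RRJ2 the nearest with a named product were AK107199, matched to the oat DNA-binding protein ABF1, at 0.24, AK064063, an actin depolymerizing factor, at 0.28, and AK101670, the cytochrome P450 OsDWARF, at 0.30. For *PDC2* they were AK104277, matched to barley peroxidase BP1, at 0.07, AK101076, OsEIL1, at 0.08, and AK073481, the embryo-specific Ose731, at 0.13. For the maize *pdc2*-like probe they were AK073497, a villin, at 0.11, AK102039, a hydrophobic LEA-like protein, at 0.11, and AK112056, a myb factor, at 0.12. Among the 3 members without saturation, the smallest difference was 0.79, between *PDC2* and the maize *pdc2*-like probe, and RRJ2 was at 1.02 from the latter. The ranks among 19946 probes ran otherwise. The maize *pdc2*-like probe ranked 613 in nearness to RRJ2 and 18491 in nearness to *PDC2*. In nearness to the maize *pdc2*-like probe, RRJ2 ranked 17127 and *PDC2* 6045.

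Alcohol dehydrogenase, the next step of ethanol fermentation, is the activity the mutant is named for. Of 15 alcohol dehydrogenase descriptions tested, 2 were called higher and 0 lower by limma, where 14.6% of all probes were called higher and 10.1% lower. Their median log2 ratio was -0.01, the same as that of all probes. The list was drawn by description, including matches to tobacco allyl alcohol dehydrogenase and maize tasselseed 2. Which of these enzymes form ethanol was not tested. An *ADH1* cDNA, AK069330, rose by 0.14, 0.26 and 0.24 in replicates 1, 2 and 3 (0.21 ± 0.07, SD, n = 3; limma adjusted p = 0.031). A second *ADH1* cDNA, AK073964, gave 0.24 ± 0.17 (SD, n = 3; limma adjusted p = 0.0905), and the *ADH2* cDNA AK102799 gave 0.33 ± 0.23 (SD, n = 3; limma adjusted p = 0.0785). The other call was AK109382, matched to a tobacco allyl alcohol dehydrogenase, at 1.68 ± 0.24 (SD, n = 3; limma adjusted p = 0.00397). A further probe with that description, AK063674, gave -0.59 ± 0.39 (SD, n = 3; limma adjusted p = 0.0655). AK066331 gave -0.37 ± 0.49 (SD, n = 3), and the other 9 (AK060453, AK061007, AK070393, AK110720, AK070356, AK101288, AK067720, AK105237 and AK100767) lay between -0.11 and 0.04. Both *ADH1* cDNAs were above 0 in all 3 replicates, also as means after median centring or from the scanner software's processed signals (0.21 and 0.24, and 0.23 and 0.27), and none of the 15 spots was saturated on any array. From those processed signals AK069330 missed the threshold (limma adjusted p = 0.0504) and AK109382 gave 3.24. With any 1 replicate left out, 1 alcohol dehydrogenase probe was called higher, and without replicate 3 another was called lower.

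Lists of enzymes that make or take up pyruvate are given beside the shares of all probes called, 14.6% higher and 10.1% lower. No test between lists was made. Of 5 pyruvate kinase descriptions, which supply pyruvate, 4 were called higher and 0 lower, around a median of 0.36. AK071391 gave 0.70 ± 0.08 (SD, n = 3; limma adjusted p = 0.0044) and AK061668 gave 0.49 ± 0.07 (SD, n = 3; limma adjusted p = 0.00616); both carry the same description. With median centring in place of loess AK061668 gave 0.28 (limma adjusted p = 0.0187). Without replicate 2, 1 of the 5 pyruvate kinase probes was called. The pyruvate dehydrogenase complex, another route for pyruvate, had 10 tested descriptions, of dehydrogenase and acetyltransferase subunits not split by organelle. Of these, 0 were higher and 1 lower, the E1 alpha subunit AK069299 at -0.24 ± 0.08 (SD, n = 3; limma adjusted p = 0.0271). Of 6 alanine aminotransferase descriptions, AK059063 was lower at -0.32 ± 0.11 (SD, n = 3; limma adjusted p = 0.0214) and the other 5 were not called. Without replicate 1, or without replicate 2, 0 probes were called in the pyruvate dehydrogenase and alanine aminotransferase lists. None of the 3 lactate dehydrogenase descriptions was called, and AK103257 gave 0.71, 1.84 and 0.66 (adjusted p = 0.0551 by limma). Without replicate 2, 1 lactate dehydrogenase probe was called higher.

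Pyruvate orthophosphate dikinase, which can turn pyruvate back into phosphoenolpyruvate, was the least repeatable of these. Its only probe, AK065739, gave log2 ratios of -3.06, -1.61 and 1.22 in replicates 1, 2 and 3, and was not called (limma adjusted p = 0.393). Without replicate 3 it was called lower. Replicate 3 stood apart here as it did for *PDC2*, in the same direction.

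Aldehyde dehydrogenases oxidise acetaldehyde, the product of pyruvate decarboxylase, to acetate. Of 13 tested, 1 was called higher and 4 lower. Without replicate 1 these counts were 0 and 1, and without replicate 2 the lower calls were 2. AK060757 rose by 1.33 ± 0.29 (SD, n = 3; limma adjusted p = 0.00646). The OS-ALDH cDNA AK060824 gave -0.65 ± 0.07 (SD, n = 3; limma adjusted p = 0.00452) and the ALDH2b cDNA AK073079 gave -0.33 ± 0.03 (SD, n = 3; limma adjusted p = 0.00877). Of 11 tested descriptions of other enzymes of the thiamine diphosphate class or their complexes, 1 was higher and 1 lower. Both were described as acetolactate synthase, AK058963 at 0.37 ± 0.11 (SD, n = 3; limma adjusted p = 0.0159) and AK109628 at -0.82 ± 0.33 (SD, n = 3; limma adjusted p = 0.0203). Without replicate 1, or without replicate 2, 0 of the 11 were called, and without replicate 3 the higher calls were 4. Neither of the 2 thiamine synthesis descriptions was called, and with the scanner software's processed signals 1 was called lower.

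**Figure D5:**
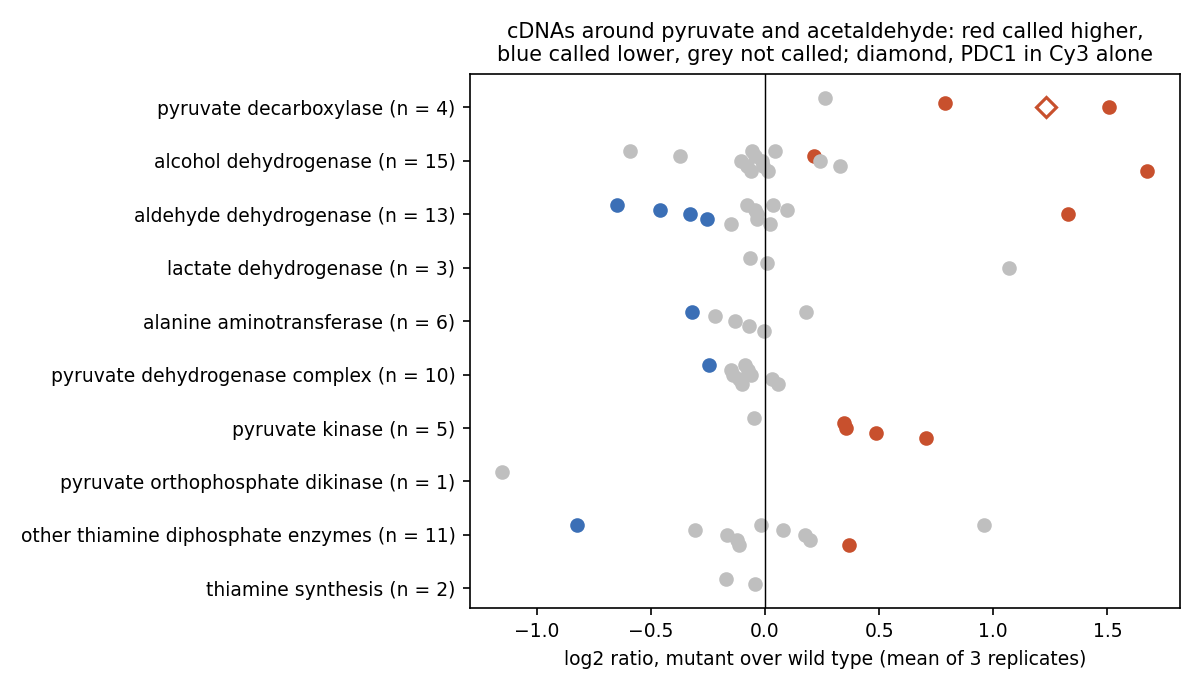
Log2 ratio (mutant over wild type, mean of 3 replicates) for each tested probe of the pyruvate decarboxylase members and of the lists of neighbouring enzymes; red points were called higher and blue points lower by limma at an adjusted p under 0.05, grey points were not called, and the open diamond is *PDC1* in Cy3 alone. RRJ2 (1.51) lies near the top of the values shown, beside AK109382 (1.68) and AK060757 (1.33).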

How the data were processed

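Ratios of *rad* mutant over wild-type coleoptiles were measured on 6 two-colour arrays of 22575 spots, read with Feature Extraction 8.5.1.1 per the file headers. The deposited scanner files give, without normalization, a mean intensity per spot and a median intensity of the surrounding background, and flags for saturation and for signals well above background. Processed intensity values, per the file headers, were corrected and dye-normalized by the scanner software; a deposited p-value and log10 ratio per spot come with them. The deposited value table holds that log10 ratio, with the sign turned on the swapped arrays so that all run as mutant over wild type; each of its 6 columns matched the scanner ratio to within 5e-06, with no further scaling.

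Normexp background correction (offset 50) was done in limma 3.58.1 (R 4.3.3), followed by loess within arrays, in which control spots had weight 0. A probe passed when at least 4 of the 6 arrays showed it well above background in 1 of the genotypes; 20213 of 21495 non-control probes did so. Outlier spots removed 266 of them, and 19947 were tested. Both arrays of a colour-swap pair were averaged to 1 replicate, and the log2 values of 3 replicates were tested by lmFit and eBayes with Benjamini-Hochberg adjustment over all probes tested; a call is an adjusted p under 0.05. Single-channel values followed Aquantile normalization after loess. The scripts were checked on simulated data.

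The titles pair the arrays by replicate number, and deviations from the mean of each dye orientation correlated within pairs at 0.805, 0.663 and 0.840. Each slide held 1 array, with both genotypes on it. The alternatives tried were background correction, array normalization, spot summary, the dim filter, the replicate block, dye orientation, moderation and leaving out each replicate.

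The 4 members, the lists of neighbouring enzymes and the tissue markers were chosen with earlier results of these data known. Named are all members, all alcohol dehydrogenase descriptions, up to 2 called probes with the smallest p in each direction of every other list, and the 3 probes nearest to each member without saturation. AK103257 and AK065739 were named after their values were seen. Of the marker lists not described above, seed storage had 0 probes called of 13 tested by limma, and aleurone 0 higher and 2 lower of 15. The description pattern for other thiamine diphosphate enzymes also takes in an E2 subunit of 2-oxoglutarate dehydrogenase, which belongs to such a complex without using thiamine diphosphate. Symbols follow the descriptions in the files, which are best matches and can be old.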

Additional observations from a re-analysis of the deposited data

Results flagged for a closer look

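The dye effect of *PDC1* (AK100678) was -0.90 on the log2 scale (limma adjusted p = 5.4e-06). It was singled out because the ratio of mutant over wild type differed between the dye orientations, -0.13 with the mutant in Cy5 against 1.66 with the mutant in Cy3, and did so in the same direction in all 3 replicates. The Cy5 spot was saturated on all 6 arrays.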

How the results depend on the processing

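Without replicate 1, 2 or 3 in turn, the log2 ratio ran from 0.02 to 0.40 for *PDC2*, from 1.16 to 1.83 for RRJ2 and from 0.61 to 0.94 for the maize *pdc2*-like probe. The calls of RRJ2 and the maize *pdc2*-like probe were lost without replicate 1 or without replicate 2. The averaged *PDC1* value has no readable size or direction because of saturation: it was 0.62 to 0.88 with a replicate left out and -0.13 with only the arrays holding the mutant in Cy5. Counting it, between 0 and 3 of the 4 members passed the threshold with a replicate left out, against 3 in the reported fit. Fitted with the replicate block as a random effect and a dye term, the ratios of *PDC2*, RRJ2 and the maize *pdc2*-like probe were 0.26, 1.51 and 0.79, with the last 2 called (limma adjusted p = 0.00152 and 0.00171). All probes called numbered 4929 in the reported fit, 8357 with no replicate block and a dye term, 1491 without replicate 1 and 1184 without replicate 2, with fewer samples in the last 2.

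Within Cy3, *PDC1* stayed called under every setting, 1.14 with the scanner software's processed signals (limma adjusted p = 0.0317) and 1.03 to 1.45 with a replicate left out. For *PDC2* the Cy3 difference turned to -0.17 with the channel scaled to its 75th percentile and ran from -0.0379 to 0.3959 with a replicate left out, in no case called. The Cy3 call of RRJ2 was lost with the processed signals (1.44) and without replicate 2 (1.52), and that of the maize *pdc2*-like probe without replicate 1 (0.58) or 2 (0.40). The dye effects near 0 changed sign for *PDC2*, to 0.0065 with the processed signals and to between -0.0127 and 0.0066 with a replicate left out, and for RRJ2, from -0.0325 to 0.0931 with a replicate left out. The causes were not tested.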
